A study of Mus musculus with 30 samples.

Results

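The subject is a stretch of 2 Mb on mouse chromosome 10, from 79 to 81 Mb in the coordinates of the deposited files. Among male germ cells it is unusually rich in listed open chromatin in spermatogonia, and less so at the later stages. Its members are all ATAC-seq peaks of 4 stage lists whose midpoint falls in that stretch: 809 of 185395 listed peaks, of which 230 are from PriSG-A, 498 from SG-A, 74 from pacSC and 7 from rST. The stretch was chosen by its number of peaks in these same lists, so peak number and spacing are given here as a description, without a test or an interval. The comparison stretches are the 2 Mb on each side of the block, which together hold 438 peaks.

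The cells were isolated from testes of C57BL/6 mice. PriSG-A are primitive type A spermatogonia taken at postnatal day 6 (3 libraries). The others are type A spermatogonia (SG-A, postnatal day 8, 3 libraries), pachytene spermatocytes (pacSC, adult, 2 libraries) and round spermatids (rST, adult, 2 libraries). All libraries of a stage share 1 deposited list, so the spread between libraries is not measurable, no p-value was computed, and every interval below covers counting error only. The identity of the cells could not be checked against marker genes, because no annotation of the files' coordinate system was used, and no gene in the block is named.

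In ATAC-seq a transposase, Tn5, inserts sequencing adapters wherever DNA is not shielded by nucleosomes, so listed peaks mark accessible DNA such as promoters and enhancers. Peaks in mammalian genomes are unevenly spread and are densest in gene-rich stretches. Spermatogonia are the mitotic cells of the testis and include its stem cells. Pachytene spermatocytes are in prophase of the first meiotic division, when homologous chromosomes are paired and their chromatin is arranged as loops along a protein axis. Round spermatids are haploid and precede the stage at which histones are replaced by protamines.

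Across the stages the block was densest in SG-A and held few rST peaks, from a list that is itself the shortest. For PriSG-A the block held 115 peaks per Mb and the flanks 40.5, a ratio of 2.84. For SG-A it held 249 against 54.25 in the flanks, a ratio of 4.59. For pacSC the values were 37.0 and 14.25 per Mb, a ratio of 2.60. For rST the values were 3.5 and 0.5 per Mb, a ratio of 7 on 7 and 2 peaks. The rST ratio rests on too few peaks to be placed in order with the others.

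The 2 flanks were alike in the spermatogonial lists and less so in pacSC. The ratio to the low-coordinate and to the high-coordinate flank was 2.88 and 2.80 for PriSG-A, 4.12 and 5.19 for SG-A, and 3.52 and 2.06 for pacSC. Against the genome outside the block, the density ratio was 5.24 for PriSG-A, 7.31 for SG-A, 2.83 for pacSC and 1.40 for rST. The block took a larger share of the spermatogonial lists than of the later ones: it held 0.405% of the PriSG-A list and 0.564% of the SG-A list, against 0.219% of all pacSC peaks and 0.108% of all rST peaks, on 0.0775% of the listed span. With all lists at the length of the rST list, 6459 peaks of highest area each, the block kept 35 PriSG-A peaks and 43 SG-A peaks, while pacSC kept 6 and rST 7. The flanks, of doubled length, then held 35, 17, 14 and 2 peaks. The pacSC density ratio to the flanks was 0.857 on these few peaks.

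Among windows of 2 Mb taken every 1 Mb, the block held the most peaks of chromosome 10 in both spermatogonial lists. Of 2631 such windows genome-wide, 3 held more PriSG-A peaks and 1 held more SG-A peaks. In pacSC 106 windows held more, and in rST 537 did. On chromosome 10 itself the pacSC maximum was the window from 128000001 to 130000000, with 167 peaks, near the distal end of the chromosome. The block lies 49.0 Mb from the last listed peak of the chromosome.

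**Figure D1:**
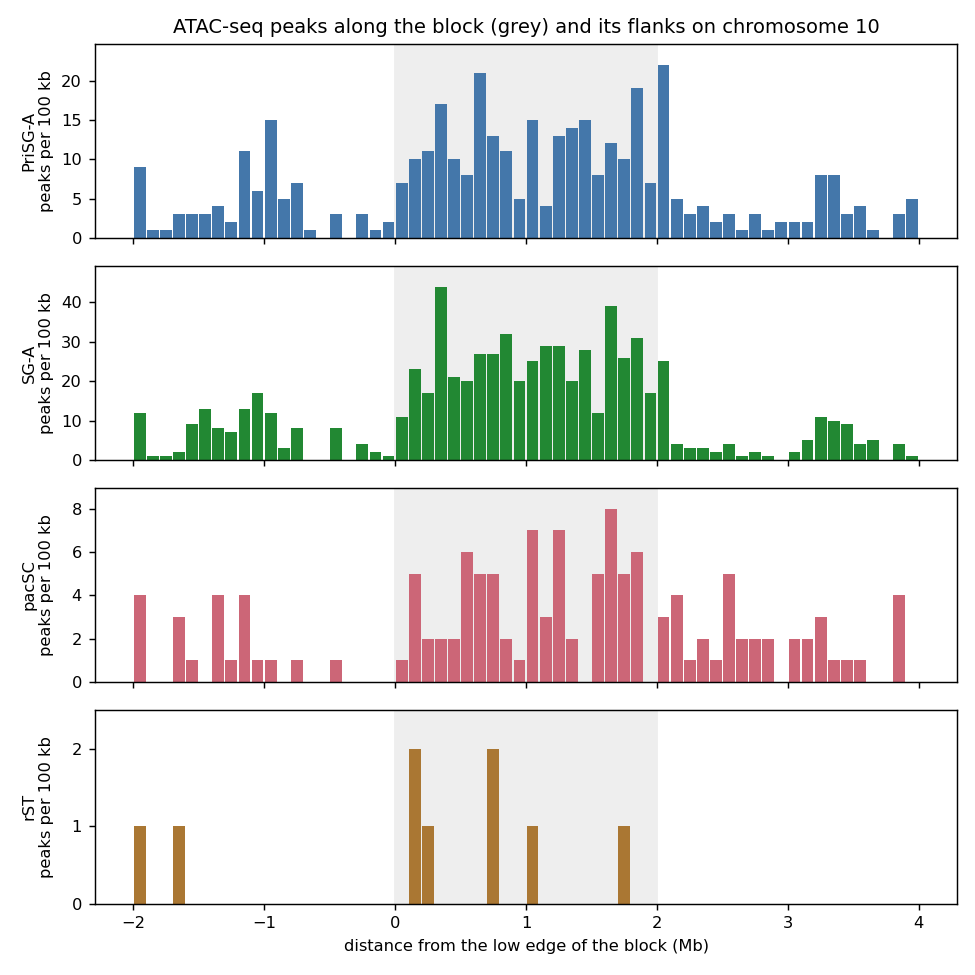
Number of ATAC-seq peaks per 100 kb (vertical axis, own scale for each stage) against distance from the low edge of the block in Mb, for PriSG-A, SG-A, pacSC and rST from top to bottom; the block is shaded grey. No bin of the block was empty in PriSG-A or SG-A, while 2 were empty in pacSC and 15 in rST, and the first 100 kb beyond the high edge were as dense as the block in PriSG-A and SG-A.

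In both spermatogonial lists every bin of 100 kb in the block held more peaks than the median flank bin. In pacSC 2 of 20 block bins were empty, and in rST 15 were. Over the 20 block bins PriSG-A had 4 to 21 peaks (median 11) and SG-A had 11 to 44 (median 25.5). For pacSC the range was 0 to 8 (median 4) and for rST 0 to 2 (median 0). In the 40 flank bins the medians were 3, 4, 1 and 0 in the same order, and the maxima 22, 25, 5 and 1. SG-A exceeded PriSG-A in 20 of 20 block bins and in 19 of 40 flank bins, and pacSC was below SG-A in 20 of 20 block bins and in 27 of 40 flank bins. The fullest block bins were 79600001 to 79700000 in PriSG-A (21 peaks), 79300001 to 79400000 in SG-A (44) and 80600001 to 80700000 in pacSC (8). Each spermatogonial list thus had its maximum in a different part of the block.

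The low edge of the block was sharp and the high edge was not. The first 500 kb inside the low edge held 55 PriSG-A, 116 SG-A and 12 pacSC peaks, and the 500 kb below it held 9, 15 and 1. At the high edge the last 500 kb inside held 56, 125 and 24 peaks, and the next 500 kb held 36, 37 and 11. Of those, 22 PriSG-A, 25 SG-A and 3 pacSC peaks lay in the first 100 kb, so the dense stretch ran past the edge set by the rule. The last PriSG-A peak inside the high edge spanned 80965468 to 80965847 and had a deposited signal value of 209.5, against 2390 for the first one outside, at 81007393 to 81008542. At the low edge, the first SG-A peak inside spanned 79016703 to 79016851 (signal value 125) and the last one outside spanned 78995375 to 78997009 (3208).

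Spacing followed number. The median gap between neighbouring peaks of the block was 3112 bp for PriSG-A, against 7185 bp in the flanks. For SG-A it was 1147 bp against 4825 bp, and for pacSC 20914 bp against 47614 bp. The 6 gaps of rST had a median of 188630 bp. In the block the median gap was 0.385 of the mean gap for PriSG-A, 0.333 for SG-A and 0.823 for pacSC. In the flanks it was 0.297, 0.270 and 0.775, so by this measure spacing was no more uneven in the block than beside it. Gaps under 1000 bp made up 39.3% of block gaps and 31.9% of flank gaps for PriSG-A, 48.1% and 30.7% for SG-A, and 28.8% and 27.3% for pacSC. With neighbours within 1000 bp joined, the block held 140 PriSG-A clumps and 259 SG-A clumps, with 53 clumps for pacSC and 5 for rST. The largest SG-A clump joined 9 peaks between 79378902 and 79384691.

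Long empty stretches were rare in the block. The widest gap was 46.5 kb in PriSG-A, from 79256964 to 79303442, and 39.6 kb in SG-A, from 79018487 to 79058091. In pacSC it was 136 kb, from 80363905 to 80499985, and in rST 699 kb. The pacSC gap fell where SG-A had 28 peaks in the bin from 80400001 to 80500000, a bin with 15 PriSG-A peaks and none of pacSC.

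Block and flank peaks had similar median widths in the spermatogonial lists, and the pacSC median was lower in the block. For PriSG-A the median width of block peaks was 250 bp (interquartile range 109 to 589), against 253 bp in the flanks. For SG-A it was 243 bp (100 to 669) against 266 bp, and for pacSC 216.5 bp (111 to 401) against 330 bp. The 95% intervals of the pacSC medians, 183 to 299 bp and 209 to 489 bp, overlapped. The direction turned at equal list length, where the block-to-flank ratio of pacSC widths was 1.19, against 0.656 over the full list. The 7 rST peaks had a median of 100 bp and a maximum of 430 bp. Peaks over 1000 bp were 30 of 230 for PriSG-A, 100 of 498 for SG-A and 1 of 74 for pacSC. The proportion was close to that of the flanks: 13.0% against 14.8% for PriSG-A and 20.1% against 20.3% for SG-A. Listed PriSG-A peaks covered 4.97% of the block and 1.75% of the flanks. The SG-A peaks covered 13.5% and 2.79%, those of pacSC 1.097% and 0.544%, and those of rST 0.0536% and 0.00472%.

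The height of a peak can be read from the deposited signal value, which is an area over the peak in the units of the authors' peak caller; divided by width it gives a mean height per bp. In the spermatogonial lists block and flank peaks were of similar height: the median area per bp was 0.592 against 0.565 in PriSG-A and 0.580 against 0.619 in SG-A. In pacSC it was 0.501 in the block (95% interval of the median 0.443 to 0.588) against 0.922 in the flanks (0.566 to 1.09) and 0.579 in the genome outside the block. The pacSC median was thus lower in the block than in the flanks, though the intervals overlapped, and the low-coordinate and high-coordinate flanks gave 0.933 and 0.839. The 7 rST block peaks had areas per bp between 0.175 and 0.496, and the 2 flank peaks 0.409 and 0.709.

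Confidence in a peak is given by its deposited −log10 q. In the block no pacSC peak passed a strict threshold. A value of 5 or more was reached by 33 of 230 block peaks in PriSG-A, or 14.3% (95% interval 10.4 to 19.5), against 19.8% of flank peaks and 9.49% of the whole list. In SG-A it was reached by 106 of 498, or 21.3% (17.9 to 25.1), against 25.8% and 18.5%. In pacSC none of 74 block peaks reached it, which allows a share of up to 4.93% by the 95% Wilson interval, against 7.02% of flank peaks and 10.7% of the whole list. The pacSC interval lay below the whole-list share, and the flank share of 4 of 57 had an interval of 2.76 to 16.7%, which overlapped it. No rST peak of the block or flanks reached it.

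The stages that shared a region also differed between the block and its surroundings. The block was chosen by its number of peaks, and 498 of its 809 peaks are from SG-A. Shares of regions by stage are therefore tied in part to that choice and are given as a description. Overlapping peaks of the 4 lists joined into 506 regions in the block and 246 in the flanks. Regions listed in SG-A alone made up 348 of the 506, or 68.8% (95% interval 64.6 to 72.7), against 46.3% of flank regions (40.2 to 52.6) and 44.4% of regions outside the block (44.1 to 44.7). Regions listed in PriSG-A alone made up 2.17% (1.22 to 3.85), against 10.6% (7.32 to 15.0) and 13.1% (12.9 to 13.3). No region of the block was listed in pacSC alone, against 4 in the flanks (1.63%) and 11.8% outside the block. Every pacSC peak of the block lay in a region that was also listed in both spermatogonial stages.

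**Figure D2:**
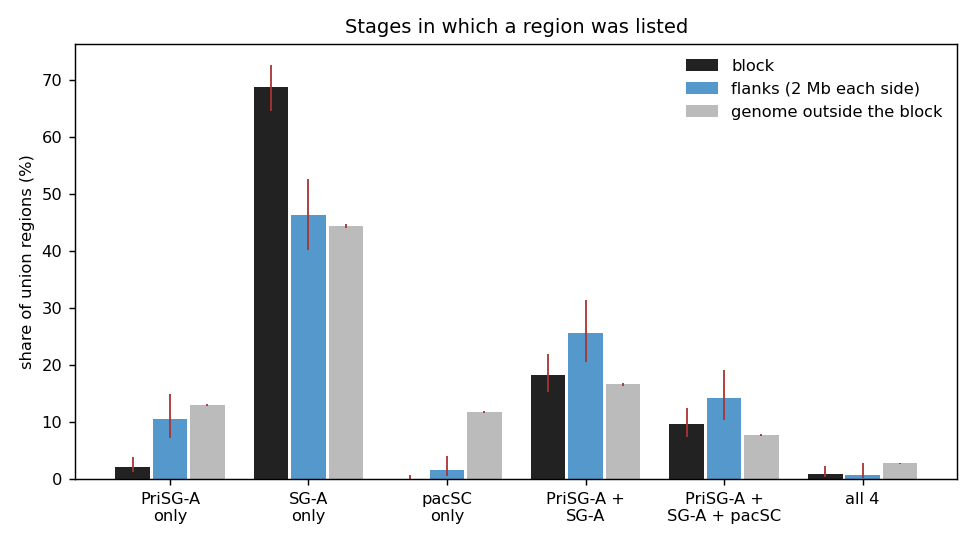
Share of union regions in percent (vertical axis) listed in PriSG-A only, SG-A only, pacSC only, both spermatogonial stages, these and pacSC, or all 4 stages, for the block (black), its flanks (blue) and the genome outside the block (grey, flanks included); lines are 95% Wilson intervals. The block had the highest bar for SG-A only, at 68.8%, and none for pacSC only.

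Of the remaining block regions, 93 (18.4%) were listed in both spermatogonial stages alone, against 25.6% in the flanks and 16.6% outside the block. In these and pacSC 49 (9.68%) were listed, against 14.2% and 7.84%, and in all 4 stages 5 (0.988%), against 0.813% and 2.83%. No other combination of stages occurred in the block, while the flanks had 1 region of SG-A with pacSC and 1 of PriSG-A with pacSC. Outside the block the most frequent other combination was SG-A with pacSC, at 1.51%. Block regions listed at more stages were wider. The median was 143 bp for SG-A alone, 951 bp for the spermatogonial pair, 1489 bp with pacSC added and 2483 bp for all 4. The same order held in the flanks, at 102, 603, 1183 and 1861.5 bp, so it is not a feature of the block. Regions were made by joining overlapping peaks, and joining a further list can only widen a region. The order is therefore partly built in.

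From PriSG-A to SG-A, almost all block peaks overlapped a listed peak again, and SG-A listed many peaks that PriSG-A did not. Of 230 PriSG-A peaks 219 overlapped an SG-A peak, or 95.2% (91.6 to 97.3), against 83.3% (76.8 to 88.3) in the flanks and 71.9% over the whole list. The difference held for narrow peaks: of those up to 150 bp wide, 88.6% (79.7 to 93.9) were listed again in the block, against 68.9% (56.4 to 79.1) in the flanks and 51.8% outside the block. In the other direction, 150 of 498 SG-A peaks overlapped a PriSG-A peak, or 30.1% (26.3 to 34.3), against 47.0% (40.5 to 53.6) in the flanks and 38.5% over the whole list. The high-coordinate flank gave 56.25% (46.3 to 65.7). The low-coordinate flank, at 39.7% (31.4 to 48.6), and the rest of chromosome 10, at 34.7% (33.3 to 36.1), had intervals that overlapped that of the block. The SG-A share is also tied in part to the peak number that chose the block. Both block shares depend on the settings: with a reciprocal overlap of 50% the PriSG-A share was 29.1% and the SG-A share 13.5%, and at equal list length 94.3% and 76.7%. SG-A peaks covered 13.5% of the block and 2.79% of the flanks; the part of this in the high PriSG-A share was not tested.

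The 348 SG-A peaks without a PriSG-A counterpart were mostly narrow. Their median width was 143 bp, and that of the 150 with a counterpart was 1156 bp. Such peaks were narrow elsewhere too: medians were 103 against 901 bp in the flanks and 105 against 645 bp outside the block. Over 1000 bp wide were 9 of the 348 in the block, none of 115 in the flanks and 216 of 53996 outside the block. High confidence (−log10 q of at least 5) was about equally rare: 0.862% in the block (3 peaks), 0.870% in the flanks and 0.954% outside the block. The 348 block peaks added 79.1 kb, or 29.3% of the SG-A covered length of the block. This share was 17.5% in the flanks and 25.5% outside the block. The nearest SG-A peak with a PriSG-A counterpart was a median of 2680 bp away in the block, 4029 bp in the flanks and 9592 bp outside the block. Within 1000 bp of one lay 31.0% (26.4 to 36.1) of them in the block and 35.7% (27.5 to 44.7) in the flanks, and these intervals overlapped. The SG-A-only peak of largest area spanned 80888983 to 80890322 and had an area of 1724, rank 12715 in the SG-A list.

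Peaks already listed in PriSG-A were broader and had a higher area per bp in SG-A. Among 95 regions with exactly 1 peak in each list, the SG-A peak was wider in 87, with a median width of 967 bp in SG-A and 380 bp in PriSG-A and a median ratio of 1.93 (interquartile range 1.39 to 3.66). In 75 such flank regions it was wider in 50, with a median ratio of 1.21 (0.975 to 1.69), and outside the block the median ratio was 1.32 (1.00 to 1.99). The area per bp was higher in SG-A in 90.5% of these block regions, 86.7% of those in the flanks and 82.3% outside the block. The median ratio was 2.49 in the block, 1.64 in the flanks and 1.95 outside the block. In 49 of 147 block regions shared by the pair, several PriSG-A peaks fell under 1 SG-A region, and in 3 several SG-A peaks did so. The ratios compare 2 lists whose read depths are unknown.

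**Figure D3:**
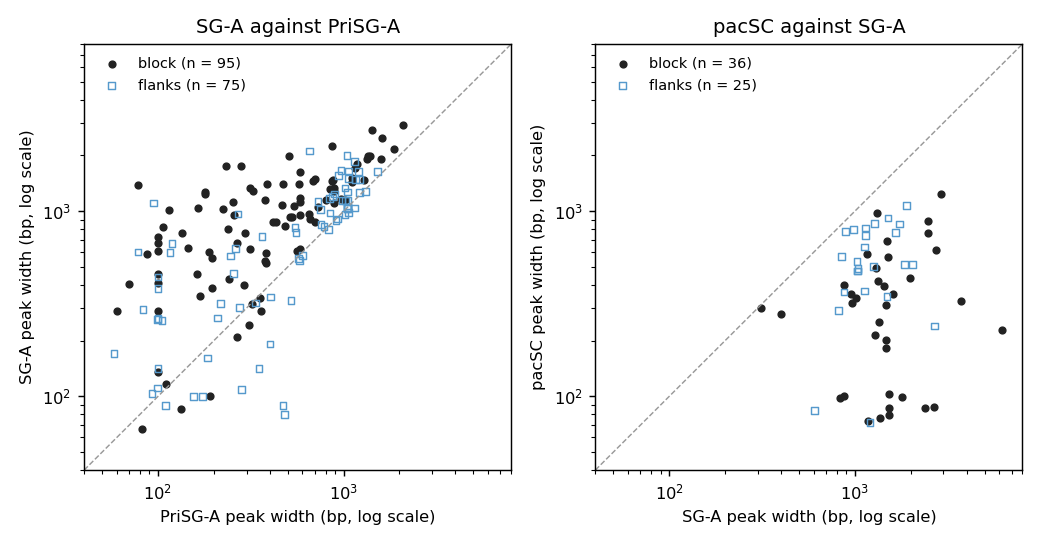
Width of the later peak (vertical axis, bp, log scale) against the earlier peak (horizontal axis, bp, log scale) in regions with exactly 1 peak in each list, for SG-A against PriSG-A (left) and pacSC against SG-A (right); filled circles are the block, open squares the flanks, and the dashed line marks equal width. In the block 87 of 95 SG-A peaks lie above the line and 36 of 36 pacSC peaks lie below it, as do 25 of 25 in the flanks.

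The peaks of largest area in the block were wider in SG-A than in PriSG-A. In PriSG-A the 3 of largest area spanned 80782485 to 80784360 (area 4487, 1876 bp wide), 79316198 to 79318279 (4155, 2082 bp) and 80164177 to 80165770 (3452, 1594 bp), and ranked 513, 640 and 1103 in that list. In SG-A they spanned 79610043 to 79616238 (19158, 6196 bp), 80598640 to 80601800 (12655, 3161 bp) and 80391075 to 80397118 (12520, 6044 bp), and ranked 71, 294 and 307. All 6 lay in regions of both spermatogonial lists, and the third of SG-A was the only one of them with no pacSC peak.

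From SG-A to pacSC few block peaks were listed again. Of 498 SG-A peaks 54 overlapped a pacSC peak, or 10.8% (8.41 to 13.9), against 17.5% (13.0 to 23.1) in the flanks and 16.9% over the whole list. The low-coordinate flank was close to the block, at 12.4% (7.66 to 19.4), and the high-coordinate flank was at 24.0% (16.5 to 33.4). With a reciprocal overlap of 50% the block share was 1.00%. By width the block was below the genome outside it in all 5 classes, but not below the flanks in all. Of SG-A peaks over 1000 and up to 2000 bp wide, 33 of 81 were listed in pacSC in the block, or 40.7% (30.7 to 51.6), against 65.0% (49.5 to 77.9) in the flanks and 68.8% (67.9 to 69.7) outside the block. Over 2000 bp it was 12 of 19, or 63.2%, against 2 of 4 in the flanks. From 151 to 500 bp it was 2 of 153 against 0 of 54, and up to 150 bp none was listed in either. Among those whose −log10 q reached 5 it was 54 of 106, or 50.9% (41.6 to 60.3), against 67.9% (54.8 to 78.6) and 64.4% (63.6 to 65.1). In this subset and in the class over 1000 and up to 2000 bp the intervals of block and flanks overlapped, while those of the block and the genome outside it did not.

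**Figure D4:**
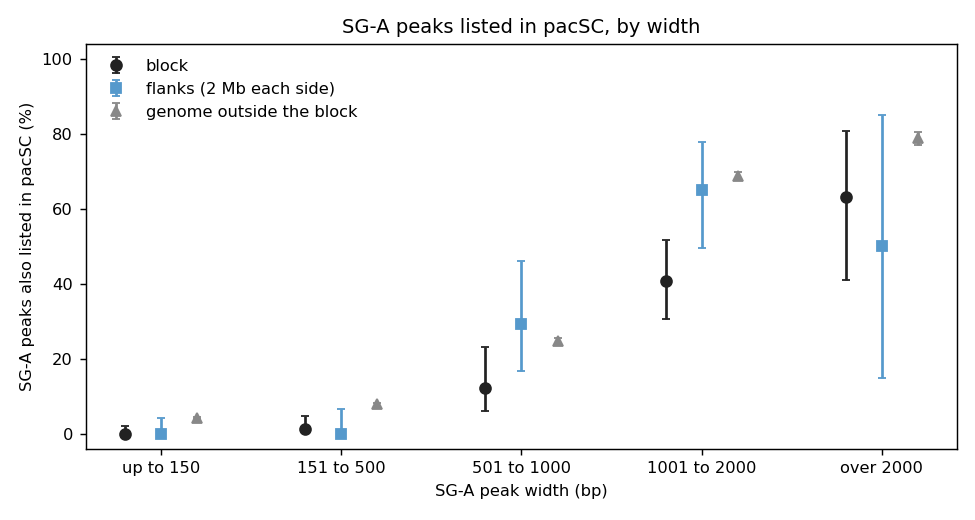
Share of SG-A peaks also listed in pacSC in percent (vertical axis) by SG-A peak width in bp (horizontal axis), for the block (circles), its flanks (squares) and the genome outside the block (triangles, flanks included); bars are 95% Wilson intervals. The block lies below the genome outside it in every width class, at 40.7% against 68.8% for peaks over 1000 and up to 2000 bp, and among the 5 classes the intervals of block and genome overlap only for peaks over 2000 bp.

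For PriSG-A peaks the share listed in pacSC varied with the kind of peak. Of 33 PriSG-A block peaks whose −log10 q reached 5, 29 were listed in pacSC, or 87.9% (72.7 to 95.2), against 78.1% (61.2 to 89.0) in the flanks and 89.3% (88.4 to 90.1) outside the block. Of all 230 PriSG-A block peaks 23.5% (18.5 to 29.4) were listed in pacSC, against 26.5% (20.3 to 33.8) in the flanks and 25.6% outside the block. Among those up to 150 bp wide it was 1 of 79, or 1.27% (0.224 to 6.83), against 6.56% (2.58 to 15.7) in the flanks and 8.12% (7.78 to 8.47) outside the block.

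Every pacSC peak of the block lay on a spermatogonial one. All 74 overlapped an SG-A peak, or 100% (95.1 to 100), against 91.2% (81.1 to 96.2) in the flanks and 54.2% over the whole list. Of the 74, 73 overlapped a PriSG-A peak. The low-coordinate flank also had full overlap with SG-A, at 21 of 21 peaks, and the high-coordinate flank had 31 of 36 (86.1%). With a reciprocal overlap of 50% the SG-A overlap of the block was 6.76%, and at equal list length it was 83.3%, or 5 of 6. In the block 73 of 74 lay wholly inside their SG-A peak, against 87.7% in the flanks and 43.2% outside the block. They covered 8.13% of the SG-A length in the block, against 18.7% in the flanks. In 36 regions with exactly 1 peak in each list, the pacSC peak was narrower than the SG-A peak and lower in area per bp. This held in 36 of 36, and in the flanks in 25 of 25. The flank regions at 81233314 to 81234366 and 81392652 to 81393704 had the same widths and areas per bp, so they are not independent. Outside the block the pacSC peak was narrower in 8711 of 10445. In the 36 block regions the median width was 314.5 bp in pacSC and 1470.5 bp in SG-A. The median ratio of widths was 0.220, against 0.461 over 25 flank regions and 0.553 outside the block. The median ratio of area per bp was 0.166 in the block, 0.355 in the flanks and 0.423 outside the block. Their summits lay a median of 70.5 bp apart in the block and 38 bp apart in the flanks.

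The largest pacSC areas in the block were 1383 at 79577975 to 79578913 (939 bp wide), 1169 at 79316810 to 79318048 (1239 bp) and 1119 at 79017278 to 79017971 (694 bp). They ranked 3089, 3782 and 3953 in the pacSC list. The second of them lies in the region that ranked 640 in PriSG-A, and the third is also the first pacSC peak inside the low edge.

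In rST the block held 7 peaks in 5 regions, each of which was listed at all earlier stages. Most were near the floor of the rST list, whose lowest area was 20.0. Apart from 1 peak of area 213, their areas were 22.1 to 49.5, at ranks 4184 to 6208 of 6459. Of the 7, 6 overlapped a pacSC peak, or 85.7% (48.7 to 97.4), against 88.3% over the whole rST list, and all 7 lay wholly inside an SG-A peak (64.6 to 100%), against 2 of 2 in the flanks and 70.3% outside the block. In the other direction 5 of 74 pacSC peaks were listed in rST, or 6.76% (2.92 to 14.9), against 14.3% over the whole pacSC list. The interval of this last share included the whole-list value. With a reciprocal overlap of 50% the 2 shares were 14.3% and 1.35%, and at equal list length 42.9% and 33.3%.

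**Figure D5:**
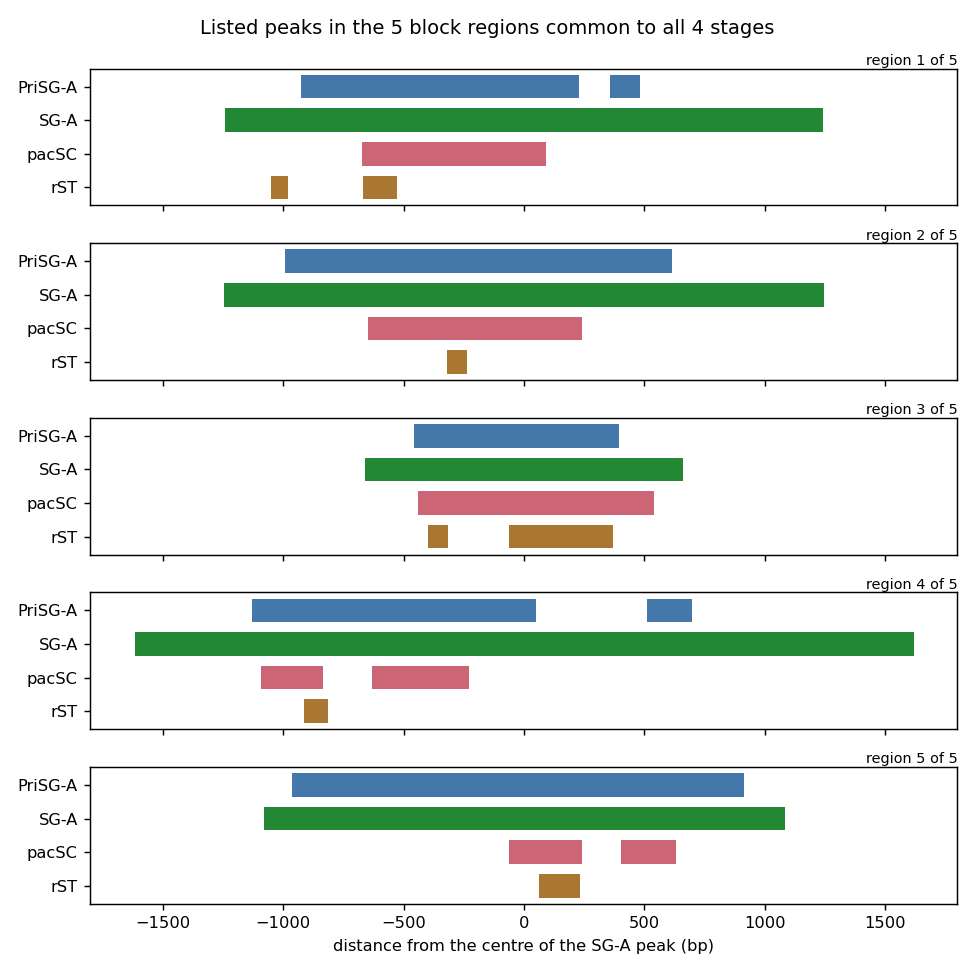
Extent of listed peaks in PriSG-A, SG-A, pacSC and rST (rows from top to bottom) in the 5 block regions common to all stages, against distance from the centre of the SG-A peak in bp; the 5 panels follow the chromosome from low to high coordinates. The SG-A peak was the widest in every panel, from 1323 to 3235 bp, and each rST peak lies inside it.

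The region with the largest rST area was at 79791906 to 79793228. The PriSG-A peak had an area of 873 (850 bp wide), the SG-A peak 6594 (1323 bp) and the pacSC peak 1077 (979 bp), and rST had a peak of 213 (430 bp) plus one of 26.8 (81 bp). It was the only one of the 5 with a pacSC peak wider than the widest PriSG-A peak, and its larger rST peak ranked 1519 in that list. The region with the largest PriSG-A and SG-A areas of the 5 was at 80782367 to 80784530. Its PriSG-A area was 4487 and its SG-A area 11783, against 84.9 and 54.3 for 2 separate pacSC peaks and 49.5 for the rST peak.

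The other 3 regions had smaller rST areas as well. At 79143829 to 79146311 PriSG-A had areas of 3059 and 116, SG-A had 8099, pacSC had 501.3, and rST had 33.4 and 24.1. At 79228929 to 79231420 PriSG-A had 2796, SG-A had 9508, pacSC had 965 and rST had 22.1. At 80084181 to 80087415 PriSG-A had 2676 and 27.8, SG-A had 9522, pacSC had 195 and 202, and rST had 48.8. With peaks of a stage summed, the SG-A area was the largest of the 4 stages in all 5 regions and the rST area the smallest.

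The 3 other non-overlapping windows of 2 Mb with most SG-A peaks were used to see whether this pattern is particular to the block; they were picked after the block's values were known. They lie on X from 120000001 to 122000000 (512 SG-A peaks), on chromosome 8 from 73000001 to 75000000 (327) and on chromosome 4 from 145000001 to 147000000 (312). SG-A-only regions made up 68.8% of regions in the block (64.6 to 72.7), against 17.4% (14.5 to 20.9) on X, 58.7% (53.5 to 63.7) on chromosome 8 and 44.6% (39.7 to 49.7) on chromosome 4. The share of pacSC peaks lying on an SG-A peak was 100% in the block, against 99.2%, 98.0% and 87.3%. Of SG-A peaks over 1000 and up to 2000 bp, 40.7% were listed in pacSC in the block, against 98.1%, 42.0% and 79.3%. A −log10 q of 5 was reached by none of the pacSC peaks in the block, against 12.9% on X, 4% on chromosome 8 and 20.6% on chromosome 4. The window on chromosome 8 was near the block in both pacSC shares and held 50 pacSC and 7 rST peaks, while its interval for SG-A-only regions lay below that of the block. Its share of pacSC peaks with a −log10 q of 5 also fell inside the interval of the block. Neither the overlap of pacSC with SG-A peaks nor the lack of high-confidence pacSC peaks is therefore called particular to the block.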

How the data were processed

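Of 30 samples in the series, 10 are ATAC-seq libraries; their 4 deposited peak lists were used. Hi-C and ChIP-seq samples were not analysed here. The PriSG-A list has a garbled name and was assigned by excluding the other 3. Bowtie2 2.2.5, Bowtie, SAMtools and mm10 are named in the submitters' processing notes. The peak caller, any Tn5 shift and the depth: not given in the sources used here. Each deposited peak has a score, a signal value (an area over the peak), a −log10 q and a summit offset. The deposited score equals 1000 times area per bp, capped at 1000, for 100% of peaks within a tolerance of 1.

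RefSeq tables of GRCm38 (mm10) served to check the build. Peaks exceeded the last gene on 10 of 21 chromosomes, most on chromosome 7 (7.20 Mb). Of 1648 promoter windows on chromosome 10, 5.64% overlapped an SG-A peak, against a median of 4.49% after 10 shifts by multiples of 37 kb. The positions are therefore not on mm10; they are given as deposited, 1-based, without conversion, genes or sequence.

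Python 3.11.15, numpy 2.4.6, pandas 2.3.3 and scipy 1.17.1 were used. Peaks were assigned by midpoint and compared by an overlap of at least 1 bp. Shares have 95% Wilson intervals, and medians order-statistic intervals; both treat neighbouring peaks as independent. Exact conditional binomial intervals of density ratios served only to judge the alternatives. Overlap, gap and joining steps were tested on simulated peaks. The block and its comparisons were chosen with earlier results of these data known. Named regions are the 3 peaks of largest area per list, regions in all 4 lists, the largest peak of 1 stage only, the widest gaps, the fullest bins and peaks next to the edges. Width classes, containment and the windows on X and chromosomes 8 and 4 were added later.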

Additional observations from a re-analysis of the deposited data

How the results depend on the processing

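Alternatives were flanks of 1 or 5 Mb, a −log10 q of at least 5, every list at 6459 peaks, neighbours within 1000 bp joined, and a reciprocal overlap of 50%. Among 50 values so obtained, 20 fell inside the 95% interval of the main value, 27 moved and 3 reversed. The cause was not tested beyond the shorter lists. Joining neighbours removes the shortest gaps, a shortened list is sparser, and a stricter overlap can only lower a share. The direction of such moves in spacing and sharing was thus largely set in advance, and the tally is no measure of stability for them. The rST list could not change at equal length, and with flanks of 1 Mb or a −log10 q of 5 it left no flank peak for a ratio. Of the density ratios, PriSG-A gave 3.91 with flanks of 5 Mb, 2.06 with a −log10 q of at least 5 and 2.00 at equal length. SG-A gave 6.00 with flanks of 1 Mb, 3.79 with the q threshold and 3.43 joined. The pacSC ratio reversed to 0 with the q threshold, on 0 block and 4 flank peaks, and to 0.857 at equal length. The block-to-flank width ratio reversed in pacSC, at 1.19 against 0.656, at equal length; in SG-A, 0.914 became 1.11 at equal length and 1.07 with flanks of 5 Mb. The ratio of area per bp was 1.13 in SG-A at equal length, against 0.938, and in pacSC 0.754 at equal length and 0.681 with flanks of 5 Mb, against 0.544. Median spacing was 10655 bp joined and 40961 bp at equal length in PriSG-A, 4529.5 and 29484 bp in SG-A, and 29280 and 213214 bp in pacSC. With a reciprocal overlap of 50%, SG-A listed 29.1% of PriSG-A peaks, PriSG-A 13.5% of SG-A, pacSC 1.00% of SG-A, SG-A 6.76% of pacSC, rST 1.35% of pacSC and pacSC 14.3% of rST. At equal length PriSG-A listed 76.7% of SG-A, SG-A 83.3% of pacSC, rST 33.3% of pacSC and pacSC 42.9% of rST. No paired analysis was possible because libraries of a stage were deposited as 1 list, and no library could be left out. As depth is unknown, comparisons of presence in a list are limited throughout.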

Other observations

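Counts per 100 kb had a lower correlation between the spermatogonial lists inside the block than beside it. Across 20 bins of the block Pearson's r between SG-A and PriSG-A was 0.507 and Spearman's rho 0.540, and across 40 flank bins they were 0.819 and 0.762. Bins share libraries, depth and base composition and are not independent. No interval of r was computed. In the flanks 3 bins were empty in PriSG-A and 5 in SG-A, and in the block none, so the correlations span unlike counts. Between pacSC and SG-A, r was 0.297 in the block and 0.334 in the flanks. The bin from 80100001 to 80200000 held 29 SG-A peaks and 4 PriSG-A peaks, and the bin from 79600001 to 79700000 held 27 and 21.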
